A study of Mus musculus with 12 samples.

Results

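Cytosolic ribosomal protein genes of mouse embryonic stem cells (ESCs) were examined with and without Cdk8 and with and without induction of Xist. A gene was taken as a member when it was listed as protein-coding in all 12 tables and its whole name had the form Rpl or Rps followed by a number, with an optional a, x or y, or by p0, p1 or p2. This rule gave 75 of 25759 genes, and 46 of them belong to the large and 29 to the small subunit. Rps4x, Rpl36a, Rpl39 and Rpl10, 4 in all, lie on the X chromosome and the other 71 on autosomes. The names Rpsa, Rps3a1, Fau and Rack1 do not have this form although they encode or carry ribosomal proteins, and values of these genes are given separately.

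The wild-type (WT) cells were the parental HATX3 ESCs, a line of haploid origin whose cells are now diploid, in which doxycycline switches on Xist through a transactivator expressed from the Rosa26 locus. The ΔCdk8 cells were the clones 8, 11 and 15 of the same line, each 1 clone with a small deletion around the Cdk8 start codon made with CRISPR/Cas9. WT replicates 1, 2 and 3 and the 3 clones were each harvested without doxycycline (uninduced) and with it for 48 h (induced), which gave 4 groups of 3 libraries. All cells carry the inducible Xist allele and the transactivator, and the titles do not say whether WT replicates came from separate cultures, so the p-values measure the spread between these samples, which may be technical.

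A cytosolic ribosome is built from nearly all ribosomal proteins in equal number, and the proteins are translated from abundant, stable mRNAs with short exons. Their genes lie scattered over the genome, and because most have left many processed copies behind, reads from one gene often match several places. The X-linked members are subject to silencing when Xist RNA coats the chromosome, while their partners in the same particle are encoded on autosomes.

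The libraries held 22170087 to 60798578 gene reads. All 8 markers of undifferentiated ESCs were detected, with a summed TPM of 3367 to 7399 per library. Markers of primitive endoderm summed to between 2.73 and 8.87, those of early germ layers to between 14.7 and 52.5, and those of trophoblast to between 20.4 and 258. Sox17, Pdgfra, Foxa2 and T stayed under 1 TPM in every library. With replicates and clones as a block, 5 of the 8 ESC markers rose on induction in WT and 4 in ΔCdk8 cells, where 12.2% and 5.60% of all genes rose. In the same fits 2 of 7 germ-layer markers tested fell in WT and 1 of 6 in ΔCdk8 cells, where 10.8% and 6.16% of all genes fell. Of the trophoblast markers 0 of 4 tested fell in WT and 1 of 6 in ΔCdk8 cells. Of the primitive endoderm markers 0 of 4 tested were called in each genotype. The response of 1 ESC marker, the transcription factor gene Esrrb, differed between the genotypes in the interaction with the block (log2 value in ΔCdk8 minus WT cells −1.45, standard error 0.34, adjusted p = 0.0385), where 2.45% of all genes were lower and 3.55% higher. It had risen by a log2 fold change of 1.86 in WT and 0.39 in ΔCdk8 cells, and the median interaction of the 8 markers was −0.53. Without the block 0 markers of these lists were called in any comparison. The part of cell state in the results was not tested. Cdk8 itself was at 64.2, 69.4 and 74.2 TPM in uninduced and at 51.6, 51.5 and 53.1 TPM in induced WT replicates. In the clones 8, 11 and 15 it was at 34.4, 56.8 and 85.3 TPM before and at 33.4, 57.8 and 84.9 TPM after induction. Clone 8 was below and clone 15 above every WT library, so the level counted over the whole gene did not separate the genotypes. The paper reports that Cdk8 protein was not detected by western blot in any of these clones. It also proposes that a small insertion might account for transcript remaining in a single clone.

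Ribosomal protein genes accounted for a large share of the transcriptome. Their summed TPM was 161951±10265 (mean±s.d., n = 3) in uninduced WT cells and 153925±8452 in uninduced ΔCdk8 cells, with the groups overlapping. After induction it was 168994±18662 in WT and 159549±11185 in ΔCdk8 cells, again within the spread of the replicates. Per length, the highest mean levels in uninduced WT cells were those of Rplp1 (4798 TPM), an acidic protein of the ribosomal stalk, Rpl7a (4727 TPM), and Rplp0 (4705 TPM), the base of the stalk. The lowest were those of Rps12 (132 TPM), Rpl27 (202 TPM) and Rps15a (266 TPM), of which Rps12 and Rpl27 share most reads with a copy, as described below. The summed TPM of large subunit members was 1.56±0.0206 times that of small subunit members in uninduced WT cells and 1.54±0.0636 times in ΔCdk8 cells.

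Among the members, the X-linked genes stood apart on induction: all of them were lower in induced than in uninduced WT cells, and they kept more of their expression in ΔCdk8 cells. Rps4x, which encodes the X-linked form of a small subunit protein, lies on the reverse strand of the X chromosome from 102184941 to 102189394 (GRCm38). It was at 4579, 4217 and 4200 TPM in uninduced and at 2287, 2266 and 2065 TPM in induced WT replicates 1, 2 and 3. In the clones 8, 11 and 15 it was at 3736, 3947 and 4710 TPM before and at 2638, 2904 and 3443 TPM after induction. Every induced library was lower than its uninduced partner, the WT groups did not overlap, and every induced clone was above every induced WT replicate.

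Rpl36a, a large subunit protein gene on the forward strand from 134585654 to 134588062, was at 2221, 2048 and 2156 TPM in uninduced and at 1164, 1167 and 1168 TPM in induced WT cells. The clones had 1638, 2026 and 2096 TPM before and 1265, 1583 and 1567 TPM after induction. The induced WT replicates lay close together, and all of the induced clones lay above them. Rpl39, which encodes one of the smallest ribosomal proteins, lies on the reverse strand from 37082520 to 37085402. Its levels were 2121, 1968 and 1900 TPM in uninduced and 1333, 1262 and 1105 TPM in induced WT cells, with no overlap between the 2 states. In the clones they were 1748, 1943 and 2077 TPM before and 1393, 1689 and 1947 TPM after induction, so that the states overlapped although each clone was lower after induction.

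Rpl10, a large subunit protein gene on the forward strand from 74270812 to 74273135, had fewer reads assigned to it and varied more. It was at 381, 637 and 401 TPM in uninduced and at 198, 191 and 159 TPM in induced WT cells. The clones had 477, 649 and 192 TPM before and 420, 491 and 343 TPM after induction, and clone 15 alone was higher after induction. In bulk RNA, fewer cells with a transcript and less of it per cell cannot be told apart for any of these genes.

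**Figure D1:**
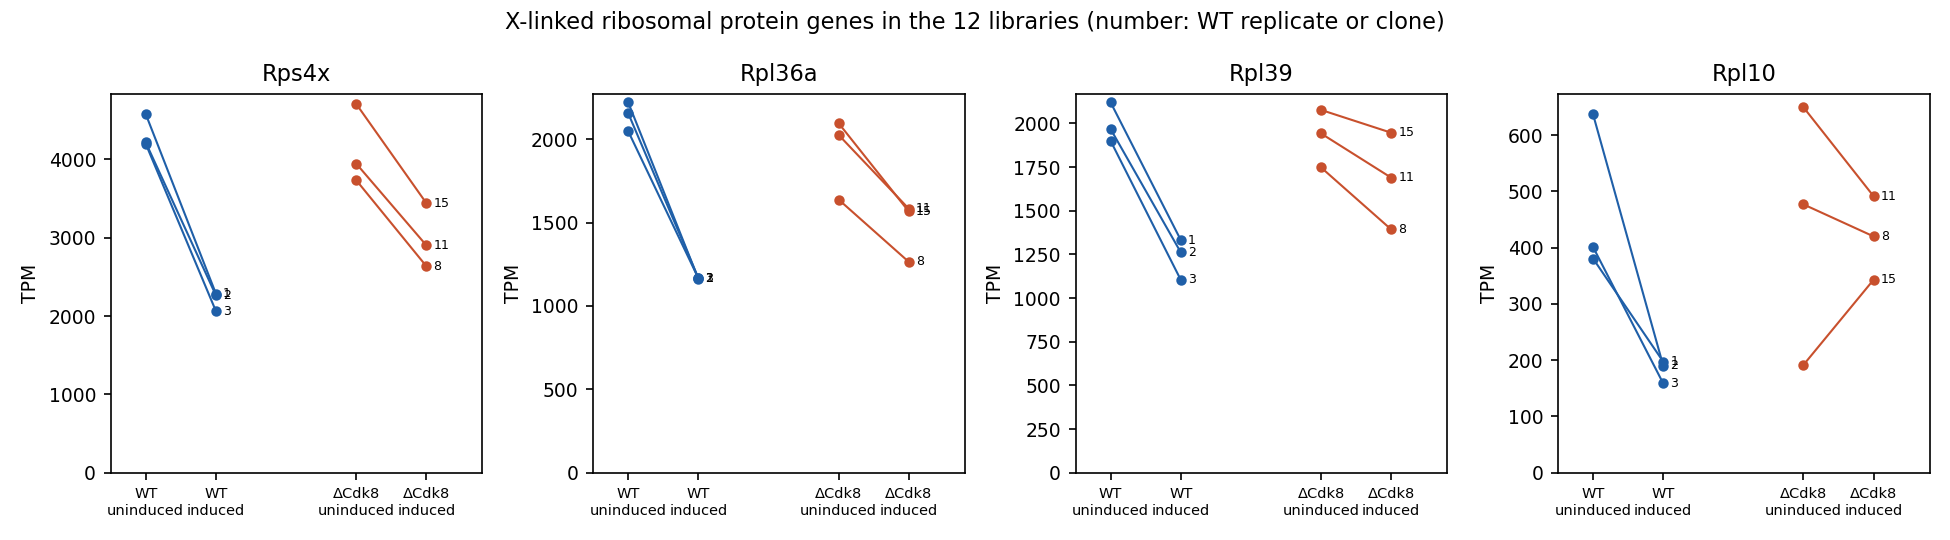
TPM of Rps4x, Rpl36a, Rpl39 and Rpl10 (y axes, from 0) in uninduced and induced libraries of WT (blue) and ΔCdk8 (orange) cells, with a line joining the libraries of each WT replicate or clone, whose number stands at the right. Every WT line falls, and the ΔCdk8 lines fall less, except that of Rpl10 in clone 15, which rises from 192 to 343 TPM.

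Read counts were compared with edgeR's quasi-likelihood test over 14006 genes in WT cells. At the threshold of the study, an adjusted p under 0.01 and more than a 2-fold change, 0 of 75 members were called, against 1.16% of all genes. An unadjusted p under 0.05 was found for 8 members and for 2969 of all genes. DESeq2 called Rpl10 alone of the members and 4.73% of all genes at this threshold. Without a minimum fold change, at an adjusted p under 0.05, 4 of 4 X-linked and 0 of 71 autosomal members were called, and all 4 fell. Over all genes tested, 2.77% fell and 1.79% rose at this threshold, and 56.7% of the 476 other X-linked genes did, so the X-linked members fell on a chromosome where most tested genes did.

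The log2 fold change in WT cells was −0.95 (standard error 0.09, adjusted p = 0.00356) for Rps4x and −0.86 (0.09, adjusted p = 0.00491) for Rpl36a. Rpl39 fell least, with −0.68 (0.10, adjusted p = 0.0151), and the reads assigned to Rpl10 gave −1.30 (0.21, adjusted p = 0.0234), a value that was −0.79 (0.15, adjusted p = 0.0401) when they were summed with those of its copy described below. With the replicate number as a block, Rpl10 was also past the threshold of the study, with −1.26 (0.13, adjusted p = 0.00318), as were 3.95% of all genes. In that fit 80.0% of the other X-linked genes fell at an adjusted p under 0.05. Without replicate 2 or without replicate 3, none of the 4 was called in the fit without the block, while their fold changes kept their sign. With the block, all 4 were called whichever replicate was left out.

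In ΔCdk8 cells 0 of 75 members and 0 of 14832 genes were called at an adjusted p under 0.05 in the fit without the clone as a block, whereas 3675 genes had an unadjusted p under 0.05 with the clone as a block and 392 without it. Over the members, 1 had an unadjusted p under 0.05 without the block, and DESeq2 called 0. With the clone as a block, 2 X-linked members fell, Rps4x with a log2 value of −0.45 (standard error 0.07, adjusted p = 0.000242) and Rpl36a with −0.37 (0.07, adjusted p = 0.00168). The value of Rpl39 was −0.19 (0.07, adjusted p = 0.0983), and that of Rpl10 was 0.05 (0.13, adjusted p = 0.863). In that fit 6.16% of all genes fell and 5.60% rose, and 69.8% of the 527 other X-linked genes fell. Without clone 15 all 4 X-linked members fell. None of the members was past the threshold of the study in the fit with all clones, against 1.40% of all genes.

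The difference between the genotypes in their response to induction was tested as the interaction term of a fit to the 12 libraries. When replicates and clones were not blocked, 0 of 75 members and 0 of 15137 genes were called in this test at an adjusted p under 0.05, and 3 X-linked members, 0 autosomal members and 587 genes had an unadjusted p under 0.05. DESeq2, which made more false calls than edgeR in simulated data for this test, called 0 members and 53 genes higher and 13 lower. With the block, the change in ΔCdk8 cells was above that in WT cells for 4 of 4 X-linked members and 0 of 71 autosomal members, and for 3.55% of all genes and 41.1% of the 545 other X-linked genes. It was below that in WT cells for 2.45% of all genes and 0 members. In log2 units the difference was 0.53 for Rps4x (standard error 0.08, adjusted p = 0.00776), 0.52 for Rpl36a (0.09, adjusted p = 0.0113) and 0.51 for Rpl39 (0.09, adjusted p = 0.0110). For Rpl10 it was 1.33 (0.26, adjusted p = 0.0188). Leaving out clone 8, none of the 4 was called with the block, and without clone 15, replicate 2 or replicate 3 the count was 3. The differences of Rps4x, Rpl36a and Rpl39 amount to folds of 1.44, 1.43 and 1.42.

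Residual expression, the TPM of a WT replicate or clone after induction divided by its TPM before, was higher in ΔCdk8 than in WT cells for every X-linked member. For Rps4x it was 0.510±0.0245 (mean±s.d., n = 3) in WT and 0.724±0.0159 in ΔCdk8 cells, and for Rpl36a it was 0.545±0.0231 and 0.767±0.0175. Rpl39 kept 0.617±0.0316 in WT and 0.868±0.0702 in ΔCdk8 cells. The values of Rpl10 were 0.405±0.110 and 1.14±0.564, the latter spread by clone 15. For each of the 4 genes every clone lay above every WT replicate, and the two-sided exact permutation p was 0.1, the smallest that 3 against 3 values allow. The same separation was found in 71.9% of 413 other X-linked genes and in 14.5% of all other genes. By RT-PCR the paper found more Xist RNA in WT than in ΔCdk8 or complemented cells, and comparable Xist clusters by RNA FISH. It gives the polyclonal parental line as the probable reason for the former. Xist level and clonal origin thus may differ along with genotype, and their part was not tested.

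The median over the X-linked members was 0.521, 0.554 and 0.517 in WT replicates 1, 2 and 3 and 0.784, 0.769 and 0.842 in clones 8, 11 and 15. Over the other X-linked genes above a mean of 1 TPM the median was 0.311±0.0380 in WT and 0.586±0.0190 in ΔCdk8 cells, and over those with at least 100 TPM it was 0.393±0.0418 (52 genes) and 0.637±0.0235 (50 genes). Of 424 other X-linked genes, 352 had a lower mean residual expression than Rpl39 in WT cells, 333 a lower one than Rpl36a, 315 than Rps4x and 271 than Rpl10. In ΔCdk8 cells the counts were 406, 368, 340 and 440 of 445 genes in the same order. Those of Rpl10 rest on the reads assigned to it, which its copy limits as described below. These ranks are descriptions of 4 genes, without a test.

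**Figure D2:**
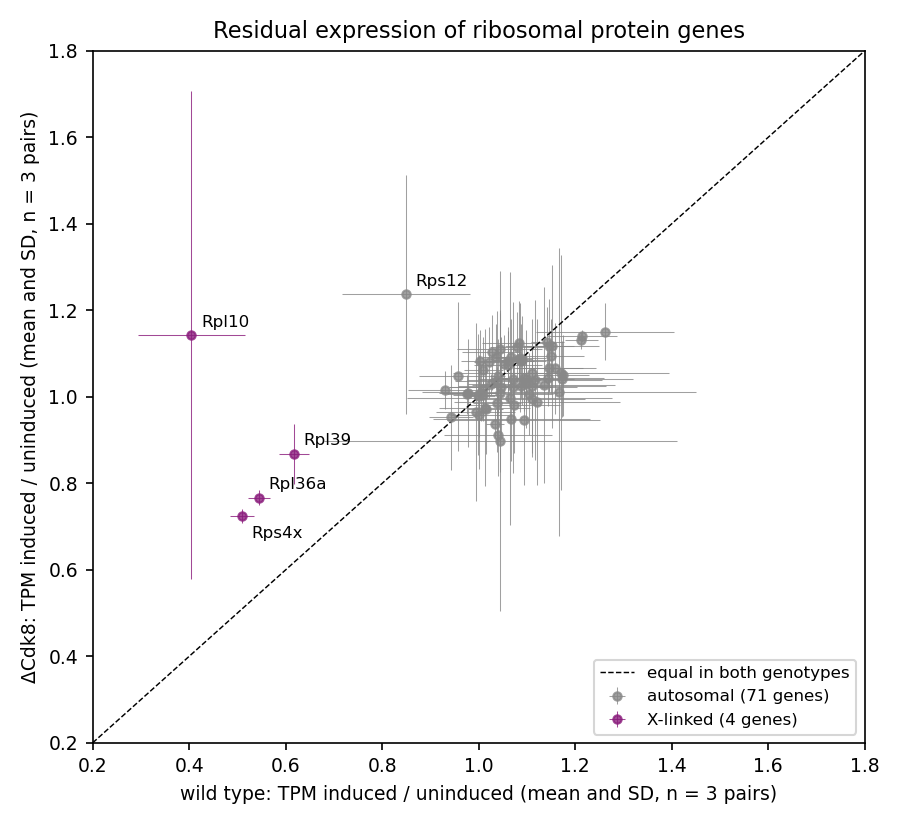
Residual expression in WT (x axis) and ΔCdk8 cells (y axis), as TPM in induced over uninduced libraries, for 71 autosomal (grey) and 4 X-linked (purple) members; points are means and bars the SD of 3 pairs, and the dashed line marks equal values. The X-linked members lie left of and above the line, apart from the autosomal cloud, whose lowest WT value is 0.849 for Rps12.

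Which reads could be assigned to Rpl10 was limited by its copies. The study counted reads matching several places as well, and its tables give for each gene the fraction of exon reads that mapped uniquely, here called the unique exon ratio. This ratio was 0.0187 to 0.0724 for Rpl10. The intronless copy Rpl10-ps3 is annotated on the reverse strand of chromosome 9, from 50344201 to 50344968, and is listed as protein-coding in the tables. All 642 coding bases of Rpl10, counted without the stop codon, are identical in Rpl10-ps3 (GENCODE M21 annotation of GRCm38). The first 150 are shown because they are the same in both genes, so that a read lying within them matches both.

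Rpl10 and Rpl10-ps3: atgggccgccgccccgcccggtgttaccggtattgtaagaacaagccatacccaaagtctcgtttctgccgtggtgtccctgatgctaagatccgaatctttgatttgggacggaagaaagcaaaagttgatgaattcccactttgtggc

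Rpl10-ps3, although autosomal, was lower after induction in WT cells. It was listed at 3476, 3711 and 3607 TPM in uninduced and at 1787, 2558 and 2124 TPM in induced WT replicates 1, 2 and 3. In the clones 8, 11 and 15 it was at 2743, 3017 and 3605 TPM before and 1917, 2627 and 2286 TPM after induction. Its unique exon ratio was 0.0015 to 0.00497, and only 45 to 222 of its exon reads per library mapped uniquely. Rpl10 received between 5.89% and 20.5% of the exon reads given to the pair, with the lowest share in uninduced clone 15. When the exon reads of both were summed and scaled to the exon reads of the library, residual expression was 0.576±0.0574 in WT and 0.769±0.0797 in ΔCdk8 cells, close to the values of Rps4x and Rpl36a and without the value above 1 in clone 15. The exact permutation p was again 0.1.

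The summed reads of Rpl10 and its copy were also tested. With the block, the log2 fold change on induction was −0.80 (standard error 0.09, adjusted p = 0.00369) in WT cells and −0.38 (0.08, adjusted p = 0.00193) in ΔCdk8 cells. The difference between them was 0.44 (0.11, adjusted p = 0.0526), so that the summed gene fell in both genotypes and the interaction did not pass. From unique exon reads alone, 48 to 322 per library, Rpl10 had a residual expression of 0.475, 0.515 and 0.501 in WT and of 0.861, 0.974 and 0.726 in ΔCdk8 cells. Rpl36a counted in this way had 0.562, 0.731 and 0.411 in WT and 0.695, 0.605 and 0.727 in ΔCdk8 cells, which overlap.

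**Figure D3:**
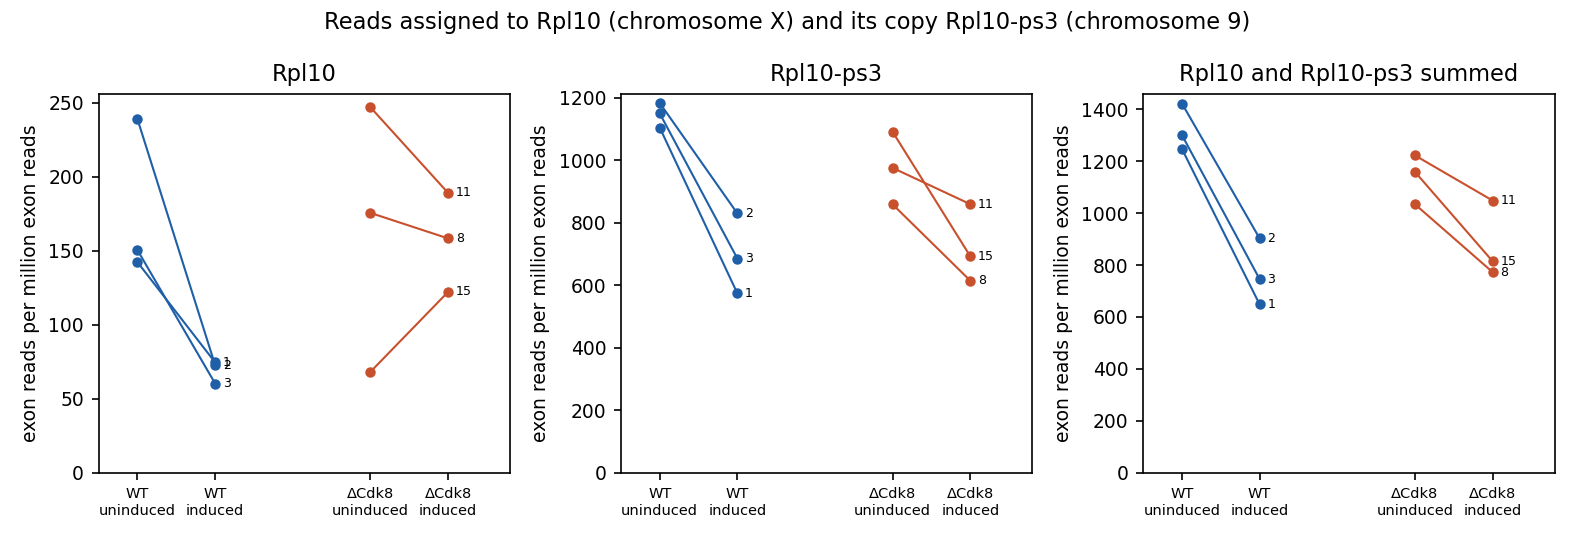
Exon reads scaled to the library's exon reads (y axes, from 0) assigned to Rpl10 on the X chromosome, to its copy Rpl10-ps3 on chromosome 9 and to both, in uninduced and induced libraries of WT (blue) and ΔCdk8 (orange) cells, joined by WT replicate or clone number. The line of clone 15 rises for Rpl10 and falls for Rpl10-ps3 and for the sum.

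Rpl36a had an even lower unique exon ratio, 0.00585 to 0.0108, but the copy listed in the tables took few of its reads. Rpl36a-ps1, on the reverse strand of chromosome 14 from 98993870 to 98994318, was at 0 to 8.56 TPM. It matches 97.8% of the 318 coding bases, with 7 differences, all within the first 150 bases. Those bases are shown with the differing positions in capitals, and the longest run without a difference is 179 bases.

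Rpl36a: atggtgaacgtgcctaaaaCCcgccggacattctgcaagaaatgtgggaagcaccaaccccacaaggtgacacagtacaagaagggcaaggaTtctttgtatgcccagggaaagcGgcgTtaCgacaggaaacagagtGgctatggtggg

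Rpl36a-ps1: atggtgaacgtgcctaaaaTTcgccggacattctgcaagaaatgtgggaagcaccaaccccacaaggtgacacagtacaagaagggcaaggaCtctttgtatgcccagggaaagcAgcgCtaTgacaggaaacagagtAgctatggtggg

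The other X-linked members were read almost without ambiguity. The mean unique exon ratio was 1.00 for Rps4x and 0.977 for Rpl39. With unique exon reads and the block, the interaction of these genes was 0.53 and 0.51 (adjusted p = 0.00654 and 0.0102), whereas it was 0.32 for Rpl36a (adjusted p = 0.560) and 0.81 for Rpl10 (adjusted p = 0.0586), which have few such reads.

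Across all 75 members the unique exon ratio ranged from 0.00225 to 1, with a median of 0.987. It was under 0.5 for 15 of the 75 members and for 4.27% of 11723 other protein-coding genes. The lowest were those of Rps27 (0.00225), Rpl36a (0.00835) and Rpl21 (0.0191). Stretches of 100 bases shared with other annotated genes covered over 50% of the longest coding transcript in 27 members, whose median ratio was 0.696, while it was 1.00 in the 44 members with a smaller shared part. Over the members, Spearman's rho between the ratio and the number of other genes with such a stretch was −0.55, a description of genes that share the same libraries.

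The low levels listed for Rps12 and Rpl27 went with copies that took most of the reads. Rps12, a small subunit protein gene, received 1.89% to 6.57% of the reads given to it and to Rps12-ps3 on chromosome 19, and Rpl27 received 7.49% to 15.7% of those given to it and to Rpl27-ps3. The summed TPM of Rps12 and Rps12-ps3 was 4749 to 8482, among the highest of the members, where Rps12 alone was at 98.4 to 211. The coding sequence of Rps12 aligned to Rps12-ps3 over 396 bases with 0 differences and 15 bases left unaligned. Rps12 was the autosomal member with the most positive interaction, 0.44 (standard error 0.23, adjusted p = 1.00 without the block), and it was −0.043 for the summed reads.

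The autosomal members as a group changed little on induction. Their median log2 fold change was 0.13 in WT and 0.089 in ΔCdk8 cells, and the median of all genes tested was 0.030 and 0.014. In WT cells 66 of 71 had a positive value. The most positive were Rpl36 (0.38, standard error 0.63), Rpl13a (0.37, 0.15) and Rplp2 (0.32, 0.45), and the most negative Rps12 (−0.11, 0.13), Rpl3 (−0.073, 0.096) and Rps9 (−0.039, 0.25), of which Rps12 was at 0.20 (0.22) when its reads were summed with those of its copy. None of these was called without the block. With it, 12.2% of all genes rose in WT cells at an adjusted p under 0.05 and 5 of 71 autosomal members did, namely Rpl13a, Rpl27a, Rpl12, Rps15a and Rps24, with log2 fold changes of 0.23 to 0.35. Without WT replicate 1 the count was 34 higher and 1 lower with the block, where 21.9% of all genes rose and 21.9% fell. When unblocked it was 14 higher and 1 lower, where 11.5% of all genes rose and 12.3% fell. Without replicate 2 or replicate 3 it was 0 in both fits.

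In ΔCdk8 cells the most positive autosomal members on induction were Rps12 (0.31, standard error 0.19, and 0.13, 0.26 when summed with its copy), Rpl13a (0.23, 0.23) and Rpl27a (0.21, 0.18), and negative values included those of Rpl37a (−0.11, 0.28) and Rpl27 (−0.090, 0.36). None was called with or without the block. The median residual expression of autosomal members was 1.06±0.0511 in WT and 1.04±0.0561 in ΔCdk8 cells, which overlap. Negative interactions among them included those of Rpl37a (−0.18, standard error 0.35) and Rpl36 (−0.18, 1.00), and the most positive after Rps12 those of Rpl41 (0.15, 0.43) and Rpl3 (0.13, 0.17). The X-linked share of the members' summed TPM was 5.55%±0.570 in uninduced and 2.87%±0.464 in induced WT cells, and 5.47%±0.554 and 4.14%±0.759 in ΔCdk8 cells.

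Before induction, most members were somewhat lower in ΔCdk8 than in WT cells relative to other genes, but none past the test. Of 71 autosomal members, 67 had a negative log2 fold change, with a median of −0.25, against a median of 0.026 over 14646 genes. The 4 X-linked members ranged from −0.32 for Rpl36a to −0.22 for Rpl39. At an adjusted p under 0.05, 0 members and 0% of all genes were called by edgeR, and 8 members and 2982 genes had an unadjusted p under 0.05. DESeq2 called 2 of 75 members, Rpl7a and Rpl23a, both lower, where 3.41% of all genes were lower and 5.51% higher. Without clone 11, edgeR called 10 of 71 autosomal members, all lower, where 5.99% of all genes were lower and 5.64% higher. As TPM over the WT mean, the median of the autosomal members was 0.919, 0.978 and 0.916 in clones 8, 11 and 15, while that of 11726 other genes was 1.096, 0.980 and 1.15, so that clone 11 showed no such offset.

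Rpl7a (−0.52, standard error 0.16, adjusted p = 0.169) and Rps12 (−0.43, 0.16, 0.212) were among the most negative values, and from unique exon reads Rps12 was at −0.076. Rpl7a was at 4378, 4716 and 5086 TPM in uninduced WT replicates and at 3282, 3846 and 3880 TPM in the clones. The groups did not overlap for Rpl7a, and 8 members in all had every clone below every WT replicate, against 7.65% of other genes. The members with every clone above every WT replicate were 2, against 15.2% of other genes.

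Both of the latter lie on chromosome 14 and are the only members there. Rpl15 was at 907, 892 and 971 TPM in WT replicates and at 1299, 1511 and 1379 TPM in the clones (log2 fold change 0.45, standard error 0.16, adjusted p = 0.197). Rps24 was at 1570, 1485 and 1547 TPM in WT replicates and at 1915, 2331 and 2311 TPM in the clones (0.38, 0.15, adjusted p = 0.231). After induction both genes again had every clone above every WT replicate. Rpl4 followed (0.36, standard error 0.31, adjusted p = 0.498), and its value came from a single clone. It was at 8707 TPM in clone 11, 4373 in clone 8 and 5305 in clone 15, and at 4118 to 4761 TPM in WT replicates. In induced cells clone 11 again stood out with 9025 TPM. Without clone 11 the log2 fold change of Rpl4 was −0.12. Rpl32, chosen after its values were seen, went the other way in the same clone, with 1927 TPM in clone 11, 2854 and 3412 in clones 8 and 15 and 2803 to 3120 in WT replicates. DNA copy number was not measured in these files, and its part was not tested.

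**Figure D4:**
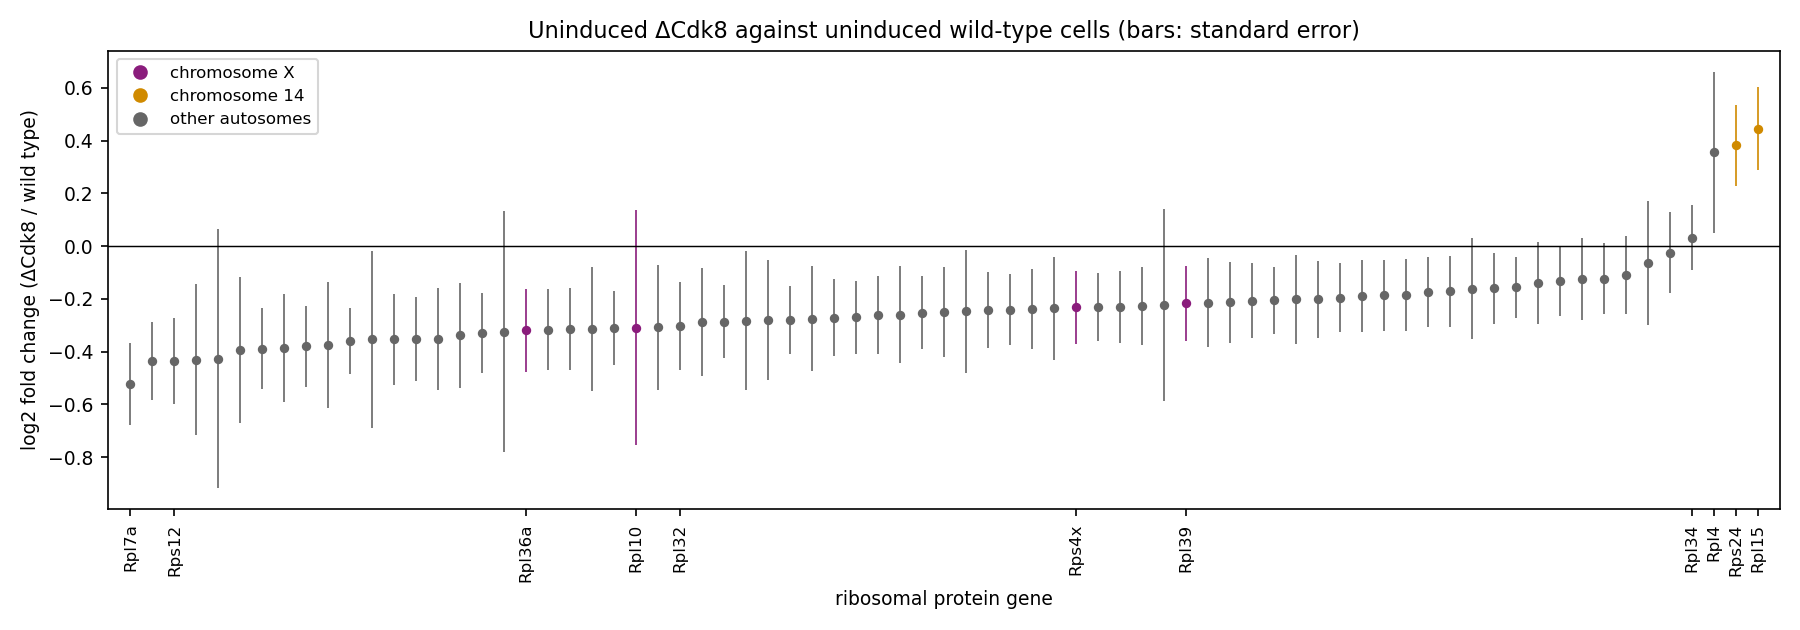
Log2 fold change of uninduced ΔCdk8 over uninduced WT cells (y axis, bars the standard error) for the 75 members (x axis), ordered by value and coloured by chromosome, with names under members described in the text. All but 4 members lie below 0, and those above are Rpl34, Rpl4 and the chromosome 14 genes Rps24 and Rpl15.

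Some members varied far more between libraries of a group than between groups. Rpl36 ranged 6.92 times from its lowest to its highest TPM over the 12 libraries, Rplp1 5.08 times and Rplp2 3.89 times, while Rpl3 ranged 1.17 times. Rpl36 was at 564, 1665 and 1418 TPM in uninduced and at 476, 2297 and 1809 TPM in induced WT replicates 1, 2 and 3. In the clones 8, 11 and 15 it was at 1308, 1174 and 500 TPM before and at 1366, 1559 and 332 TPM after induction. The low values are those of WT replicate 1 and clone 15 in both conditions. Rplp1 followed with 2480, 5871 and 6043 TPM in uninduced WT replicates and 5369, 5086 and 2134 TPM in the clones.

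The deviations of WT replicate 1 from the other replicates and those of clone 15 from the other clones were alike over the 71 autosomal members, with a Spearman's rho of 0.78 before and 0.91 after induction. They were lower in transcripts richer in G and C. In the 24 members with the highest GC content (54.3% to 62.4%) the median deviation of log2 TPM was −0.25 in uninduced and −0.49 in induced WT replicate 1, and −0.21 and −0.57 in clone 15. In the 24 with the lowest (41.3% to 49.5%) it was 0.038 and 0.021 in WT replicate 1 and 0.13 and 0.16 in clone 15. Spearman's rho between deviation and GC content was −0.54 and −0.56 in WT replicate 1 and −0.45 and −0.55 in clone 15. The part of RNA quality or library preparation in it was not tested.

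**Figure D5:**
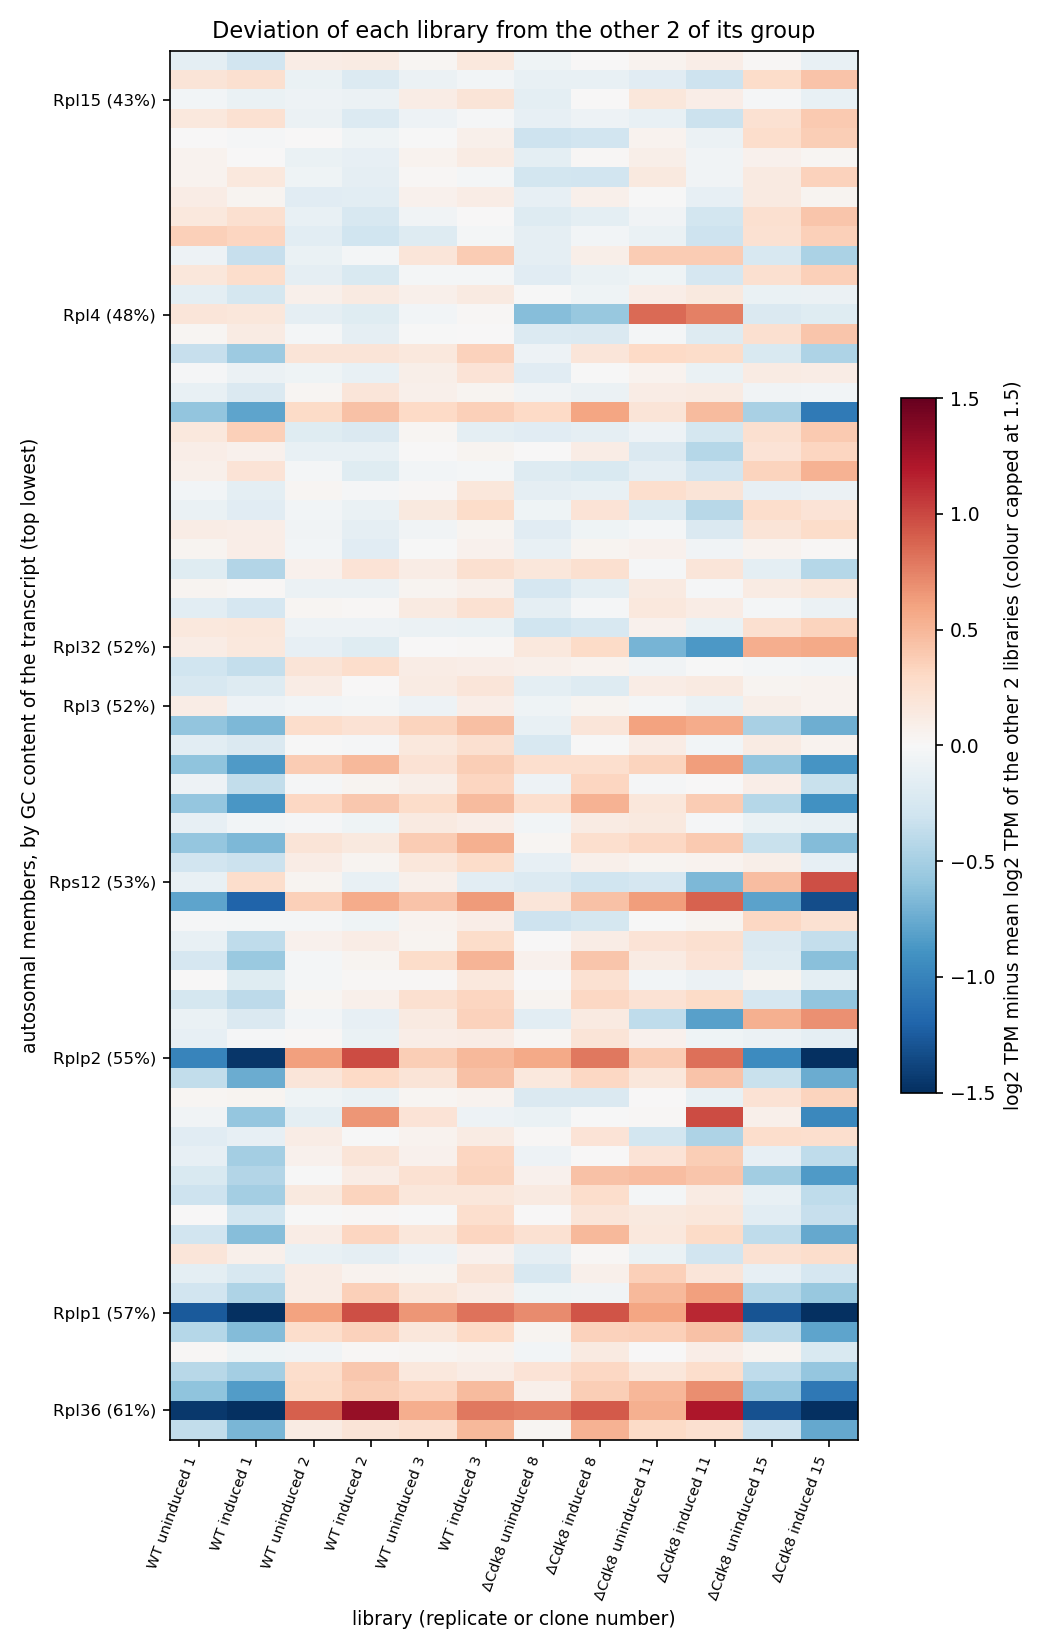
Deviation of log2 TPM of each library (x axis) from the mean of the other 2 libraries of its group for 71 autosomal members (y axis), ordered from the lowest GC content of the transcript at the top to the highest at the bottom, with red for higher and blue for lower and the colour capped at 1.5, and names beside some members described in the text. The columns of WT replicate 1 and clone 15 are bluest among the GC-rich members, down to −2.10 and −2.14 after induction.

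Among the ribosomal proteins that the name rule leaves out, Rpsa, Rps3a1, Fau and Rack1, no change on induction was called with or without the block. The log2 fold change on induction was 0.11 for Fau and 0.15 for Rack1 in WT cells, and 0.12 and 0.026 in ΔCdk8 cells. Before induction, Rps3a1 was at 2221, 2097 and 2118 TPM in WT replicates and at 2617, 1987 and 3310 TPM in the clones (0.12, adjusted p = 0.659). The values of Rpsa were 2073, 2311 and 2374 TPM in WT replicates and 2433, 2302 and 2251 TPM in the clones, which overlap.

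None of the autosomal paralogs of the X-linked members was called higher after induction. Rpl36al, a paralog of Rpl36a, was at 443, 385 and 406 TPM in uninduced and at 404, 332 and 345 TPM in induced WT cells (log2 fold change −0.17, adjusted p = 0.388). Rpl10l, a testis-enriched paralog of Rpl10, was at 11.8 to 23.3 TPM in all libraries and fell with the block in WT (−0.59, adjusted p = 0.0378) and ΔCdk8 cells (−0.43, adjusted p = 0.0489). Rpl39l, a paralog of Rpl39, had too few reads for the test in WT cells. It was at 3.97, 0.686 and 0.514 TPM in uninduced WT replicates and at 9.10, 10.6 and 16.3 TPM in the clones, with a log2 fold change of 2.67 that was not called (adjusted p = 0.168). Of the other paralogs Rpl22l1 fell in WT cells with the block (−0.44, adjusted p = 0.0144) and was at 591, 465 and 418 TPM before and 411, 327 and 324 TPM after induction. Before induction Rps27l was at 601, 665 and 726 TPM in WT replicates and at 366, 589 and 363 TPM in the clones, where every clone was lower (−0.72, adjusted p = 0.208). Rpl7l1 had a log2 fold change of −0.52 (adjusted p = 0.197) and Rpl3l one of 0.63 (adjusted p = 0.425) in that comparison.

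Genes that serve the ribosome were taken from lists of translation factors with similar mRNAs (19 genes), of ribosome biogenesis (40 genes) and of chaperones of ribosomal proteins (7 genes). On induction in WT cells, 1 of the 19, 3 of the 40 and 0 of the 7 fell at an adjusted p under 0.05 without the block, and 0 rose, where 2.77% of all genes fell and 1.79% rose. In each list an X-linked gene had the most negative value. Eif2s3x, a subunit of initiation factor eIF2, fell, with a log2 value of −0.65 (standard error 0.10, adjusted p = 0.0202). Las1l, an endonuclease of pre-rRNA processing, was at 152, 145 and 147 TPM before and at 41.9, 45.5 and 39.9 TPM after induction (−1.76, 0.10, adjusted p = 0.00237). Tsr2, the chaperone of Rps26, had −1.39 (0.49, adjusted p = 0.172) and passed with the block (−1.33, adjusted p = 0.00233). The most positive values were those of Eef1a1 (0.23), Ubtf (0.32) and Pdcd2l (0.22), none of them called.

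With the block, 4, 6 and 2 genes of these lists fell and 0, 1 and 0 rose in WT cells, where 10.8% of all genes fell and 12.2% rose. In ΔCdk8 cells 1, 2 and 2 fell and 0 rose, where 6.16% of all genes fell and 5.60% rose. The interaction with the block was positive and called for Eif2s3x (0.45, adjusted p = 0.0199), Las1l (0.86, adjusted p = 0.00207), Gnl3l, a nucleolar GTPase (1.102, adjusted p = 0.00112), and Tsr2 (0.97, adjusted p = 0.0170), all on the X chromosome, and for no other gene of these lists. Before induction 0 genes of the lists were called, and their median log2 fold changes were −0.25, −0.47 and −0.38. The most negative values were those of Nap1l1 (−0.71), Nhp2 (−0.82) and Tsr2 (−1.32), and the most positive values those of Tpt1 (0.29), Gnl3 (0.32) and Aamp (0.029).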

How the data were processed

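RNA was sequenced from 12 libraries in 4 groups of 3, taken from the sample titles. Per the study's methods, stranded libraries of polyadenylated RNA were read from a single end and untrimmed reads were aligned to GRCm38 with CLC Genomics Workbench; each library has its own table. The deposited counts are reads per gene and exon, total and unique. The TPM values were computed by the authors per library. Of the fraction columns that the authors deposited, the unique exon ratio was used. The deposited RPKM values were not used. Total reads per gene were tested in R 4.3.3 with edgeR 4.0.16 (TMM scaling, genes kept by filterByExpr at count 10 and total 15, quasi-likelihood tests, p-values adjusted by Benjamini-Hochberg over the genes tested). All 75 members passed the filter in each comparison. The standard error was the log2 fold change divided by the square root of F. Tests are two-sided. The functions were tested on simulated data.

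The replicate number or clone was taken to pair an induced with an uninduced library. The titles do not say that libraries of the same WT number share a culture, and results with the block depend on this pairing. Deviations from the group means correlated by 0.583 to 0.692 within a WT number and by 0.858 to 0.915 within a clone. Between different numbers the correlations ranged from −0.655 to 0.412 in WT cells and from −0.707 to 0.0319 in the clones. Alternatives were DESeq2 1.42.0, other scalings, filters, read classes and thresholds, all 12 libraries in 1 fit, the block and left-out libraries. Summing the reads of members with their copies, and the block with exon or unique reads or left-out replicates, were added after seeing the data. Medians, ratios and ranks were computed with Python 3.11.15, pandas 2.3.3 and scipy 1.17.1, and figures drawn with matplotlib 3.10.9. GC content and shared stretches come from the longest coding transcript of GENCODE M21, and the printed sequences from 1 chosen coding transcript of each gene and copy. Members and gene lists were chosen with earlier results of these data known. Named are all X-linked members, in each comparison the members past the threshold or else the 3 largest in each direction, the 3 highest, 3 lowest and 3 least unique members, the genes outside the name rule and paralogs, and the extremes of the other lists; Rpl32 and the members named for their spread between libraries were chosen after their values were seen. Marker lists were used only to check the cells. Xist has no entry in the tables used here, and the copy Rps4l was not matched. Some genes that this rule would name are not reported here.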

Additional observations from a re-analysis of the deposited data

Results flagged for a closer look

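The response to induction differed between the genotypes for the 4 X-linked members, in the test of the difference itself, blocked by replicate and clone. The change in ΔCdk8 minus that in WT cells was 0.51 for Rpl39, 1.33 for Rpl10, 0.53 for Rps4x and 0.52 for Rpl36a on the log2 scale. Without the block, or with it but without clone 8, none of the 4 passed. Nearly all exon reads of Rpl10 and Rpl36a matched several places, although the listed copy Rpl36a-ps1, at 0 to 8.56 TPM, took few of those of Rpl36a. With the block, Rpl10 was 0.44 when summed with its copy (adjusted p = 0.0526 with edgeR) and 0.81 from unique exon reads (adjusted p = 0.0586), and Rpl36a 0.32 from unique exon reads (adjusted p = 0.560).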

How the results depend on the processing

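The median residual expression of X-linked and autosomal members and the ratio of summed TPM between uninduced genotypes moved by less than the replicate spread under each alternative run for them. The genotypes overlapped for Rpl36a with unique exon reads. Calls depended on the settings. At the threshold of the study, 0 members on induction in WT cells became 1 with DESeq2, with the replicate block and with the block and exon reads, 0 to 1 on leaving out replicates with or without the block, 4 at an adjusted p under 0.05 and 9 with that and the block. In ΔCdk8 cells the count was 2, and in the interaction 4, with the block at an adjusted p under 0.05, and in the interaction 0 to 1 with the block on leaving out replicates. At an adjusted p under 0.05, the 4 X-linked members falling in WT cells were 2 with unique exon reads and 0 to 4 on leaving out replicates. In ΔCdk8 cells 0 became 2 with the block, 2 with exon reads, 1 with unique exon reads and 3 with summed copies added to it, and 2 to 4 on leaving out a clone. In the interaction 0 became 4, 4, 2 and 3 in the same fits, and 0 to 4 on leaving out replicates. The 0 autosomal members on induction in WT cells became 5 with the block, 6 with exon reads, 3 with unique exon reads and 5 with summed copies added to it, and 0 to 35 on leaving out replicates. The 0 before induction became 2 with DESeq2 and 0 to 10 on leaving out libraries.

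Values of uncalled members changed sign in some fits. Summing copies gave Rps12 0.20 on induction in WT cells (0.19 with the block) and −0.043 in the interaction (−0.046 with the block), and Rpl27 0.048 (0.045 with the block) in ΔCdk8 cells. On leaving out a clone, Rpl27 there ranged from −0.45 to 0.13, and was 0.086 with the block without clone 15. Rpl10 in ΔCdk8 cells was 0.050 with the block and 0.11 with exon reads added, 0.26 and 0.15 with the block without clone 11 and without clone 8, and −0.30 to 0.15 on leaving out a clone with no block. In the interaction, Rpl36 was 0.070 with the block without clone 15, and Rpl41 ranged from −0.018 to 0.22 on leaving out replicates and was −0.031 with the block without clone 8. Before induction, leaving out libraries gave −0.82 to 0.059 for Rpl10 and −0.12 to 0.57 for Rpl4. Blocking changed no count of members called other than those given; the uninduced groups could not be blocked. The causes were not tested. Reads shared with copies limit the members whose unique exon ratio is low.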
